A study of Mus musculus with 8 samples.

Results

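The collagen genes are the genes whose mouse symbol is Col, a number, the letter a and a number, as in Col4a1. By this rule 44 of the 47069 genes in the count tables were members. The rule uses no measured value, but it was set with earlier results of these data known. They were measured by poly-A RNA-seq in mouse embryonic stem (ES) cells of the C57BL/6 strain, in 4 groups of 2 libraries: wild type (WT), Pcgf3 knockout (Pcgf3KO), Pcgf5 knockout (Pcgf5KO) and the double knockout (DKO). Cas9 was used to make the knockout cells, and the labels do not say how many clones stand behind a group or whether its 2 libraries came from separate cultures. Every group shared 1 growth condition, serum with leukemia inhibitory factor on a layer of mouse embryonic fibroblasts stopped from dividing by mitomycin-C, so fibroblast RNA can be in any library. Pcgf3 and Pcgf5 encode RING-finger subunits of variant Polycomb repressive complex 1, and the groups ask how RNA levels depend on each gene and on both.

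Collagens are secreted or membrane-bound proteins whose alpha chains wind around each other into a rope-like helix. Fibrillar collagens (types I, II, III, V, XI, XXIV and XXVII) assemble into the fibrils of connective tissue and are made in bulk by fibroblasts, while type IV chains form the sheet-like network of basement membranes, a matrix that early embryonic epithelia and ES cell cultures also lay down. The other classes decorate fibrils (the fibril-associated or FACIT collagens), form beaded filaments (type VI) or short-chain networks (types VIII and X), anchor epithelia (type VII), span the cell membrane, or carry sugar chains in basement membrane zones (the multiplexins, types XV and XVIII).

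The 7 complete tables summed to between 12652616 and 19923964 counts. The WT replicate 1 table used here lists only 8093 genes (17.2%) with 3459002 counts, and only 5 of the 44 collagen genes are among them: Col5a1, Col5a3, Col6a1, Col8a2 and Col14a1. For the other 39 members, WT is the single library of replicate 2, so a difference from WT has no replicate check on the WT side, and what is particular to that library cannot be told apart from the genotype. Levels are in CPM, the usual unit that scales counts to library size, here after TMM scaling, and are given in the order WT, Pcgf3KO 1 and 2, Pcgf5KO 1 and 2, DKO 1 and 2. A gene is called changed when edgeR's quasi-likelihood test gives a p of at most 0.05 after Benjamini-Hochberg adjustment over the 15669 genes tested, log2 fold changes carry their standard error, and p-values measure only the spread between these libraries. Pcgf3 RNA stood at 109.7 CPM in the WT library and at 60.5 to 66.1 in Pcgf3KO and 67.2 to 86.6 in DKO, and Pcgf5 RNA at 20.7 in WT and at 9.06 to 12.3 in Pcgf5KO and 13.5 to 13.9 in DKO. Each was also below the WT library where it was not targeted, Pcgf3 at 92.3 and 94.1 in Pcgf5KO and Pcgf5 at 17.3 and 17.4 in Pcgf3KO. Pcgf3 in DKO replicate 1 (86.6) lay nearer to the Pcgf5KO libraries than to the Pcgf3KO ones, and both targeted RNAs were still present in their knockouts.

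Of the 44 collagen genes, 34 passed the filter on low counts. The other 10 (Col4a3, Col4a4, Col4a6, Col6a6, Col9a1, Col10a1, Col15a1, Col19a1, Col20a1 and Col28a1) reached at most 8 counts in any library. Per kilobase of exon, Col18a1 stood far above the rest, with a mean of 70.8 CPM per kb over the 7 libraries. Col4a1 followed at 13.2 and Col4a2 at 7.24, then Col5a3 at 3.32, Col5a1 at 3.22 and Col9a2 at 2.28. The fibrillar chains that fibroblasts make most of were low: Col1a1 stood at 1.21 CPM per kb, Col1a2 at 0.291 and Col3a1 at 0.0567. By number of counts, Col18a1 alone took between 50.25% and 71.32% of all collagen CPM in a library.

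**Figure D1:**
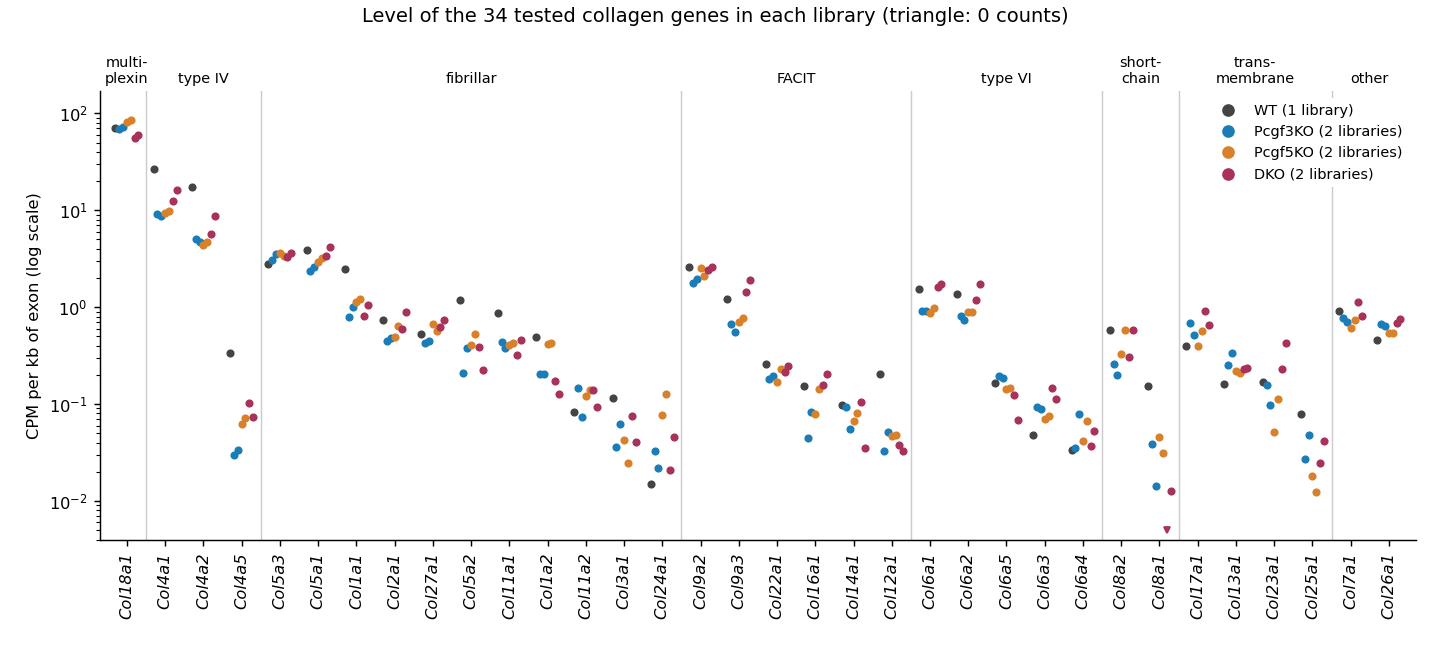
Level of each of the 34 tested collagen genes in CPM per kilobase of exon (vertical log axis), grouped by class along the horizontal axis, with 1 point per library coloured by group. Col18a1 and the type IV pair Col4a1 and Col4a2 lie above all other members, and Col1a2 and Col3a1 lie near the bottom of the fibrillar class.

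Set against WT, every collagen gene called by edgeR in the 3 knockout groups was lower. Pcgf3KO had 8 of 34 lower (Col1a1, Col1a2, Col4a1, Col4a2, Col4a5, Col5a2, Col11a1 and Col12a1), where 1.28% of all tested genes were lower and 2.36% were called in either direction. In Pcgf5KO 5 of 34 were lower (Col1a1, Col4a1, Col4a2, Col4a5 and Col12a1), beside 1.68% of all genes lower and 2.99% called. DKO had 8 of 34 lower (Col1a1, Col1a2, Col4a1, Col4a2, Col5a2, Col8a1, Col11a1 and Col12a1), beside 1.89% of all genes lower and 3.22% called. Col8a1 passed the filter on low counts through the WT library alone and so had to be high there; leaving it aside, DKO had 7 of 33 lower. The median log2 fold change over the 34 was −0.68 in Pcgf3KO, −0.42 in Pcgf5KO and −0.06 in DKO, where the medians over all tested genes were 0.00, 0.01 and 0.01. At an unadjusted p of 0.05 in edgeR's test, 1, 2 and 3 of the 34 were higher and 16, 13 and 10 lower. The share of all genes at that p was not counted for these comparisons. Those lower in DKO include Col8a1, which had to be high in WT. The 2 higher in Pcgf5KO include Col24a1, which reached the filter level in the Pcgf5KO libraries alone and so had to be high there. Neither DESeq2 nor limma called any of the 34 higher. Other settings did: 3 were called higher in Pcgf5KO without either DKO library, and in DKO 1 without the filter, 1 without DKO replicate 1 and 2 without DKO replicate 2. These 3 comparisons share the WT library, which held the highest of the 7 values for 13 of the 34 collagen genes (38.2%) and for 19.5% of all tested genes. The 13 include Col8a1, which had to be high in WT. The counts moved with single libraries. In each of the 3 comparisons fewer were called without any 1 of the 4 single-knockout libraries, and more were called without either DKO library. The share of all genes called in those fits was not counted.

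**Figure D2:**
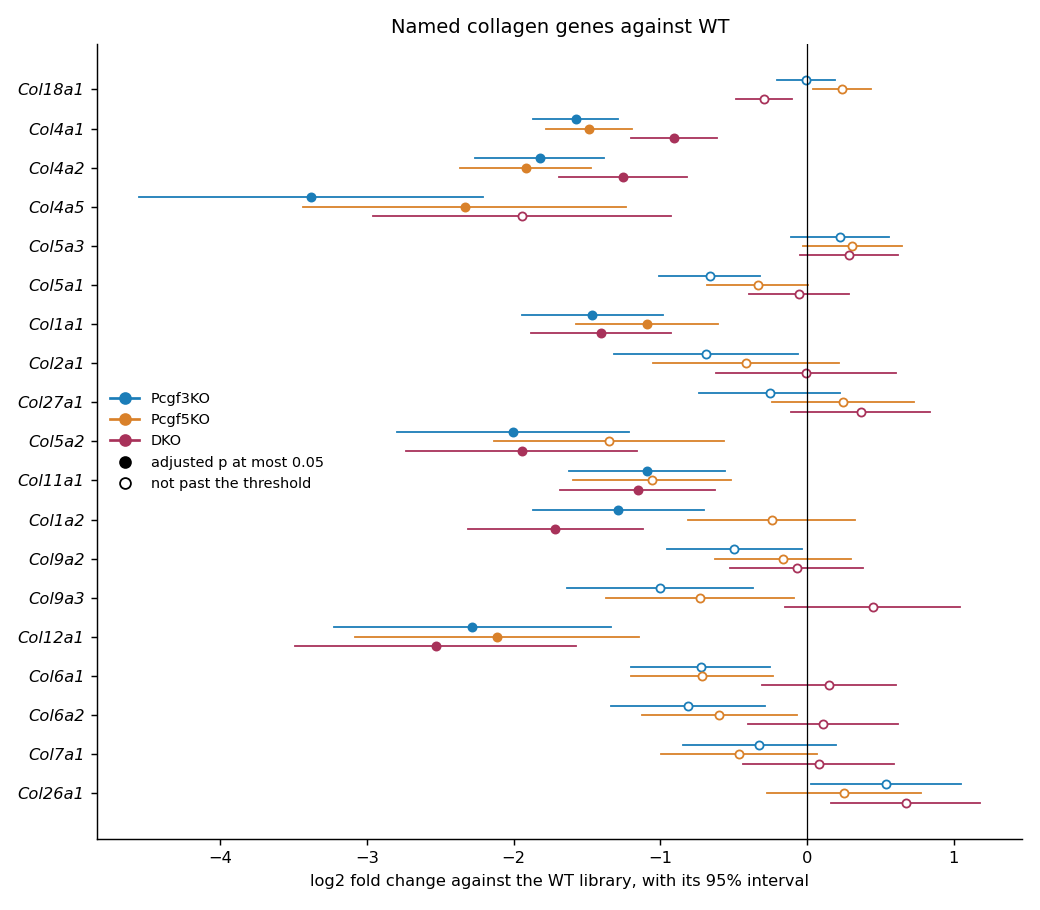
Log2 fold change of the named collagen genes against the WT library (horizontal axis) with its 95% interval, for Pcgf3KO, Pcgf5KO and DKO. Filled points passed the adjusted p of 0.05, and Col8a1 is left out because DKO held 2 counts of it. The type IV chains, Col1a1 and Col12a1 lie left of 0 in all 3 groups, and the DKO points of Col6a1, Col6a2 and Col9a3 lie right of their single-knockout points.

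Of the 6 genes of type IV collagen, the network of the basement membrane, 3 were tested, and all 3 fell in Pcgf3KO and Pcgf5KO and 2 in DKO. Of all tested genes, 1.28%, 1.68% and 1.89% were lower in the same groups. The main chains are the alpha 1 chain from Col4a1 (chromosome 8, 11198423 to 11312826, minus strand, mm10) and the alpha 2 chain from Col4a2 (chromosome 8, 11312805 to 11449287, plus strand), which assemble together. The genes lie head to head, and their deposited positions overlap by 22 bases. Their RefSeq promoter windows (GRCm38.p6), 250 bases before to 50 bases after the start, are shown because they share 78 bases (chr8:11312777-11312854) read on opposite strands and because the genes moved together. Capitals mark the GC box, which is GGGCGG or, read from the other strand, CCGCCC. They also mark the CCAAT box, which reads ATTGG from the other strand. Col4a1 is at chr8:11312777-11313076 on the minus strand and Col4a2 at chr8:11312555-11312854 on the plus strand.
Col4a1: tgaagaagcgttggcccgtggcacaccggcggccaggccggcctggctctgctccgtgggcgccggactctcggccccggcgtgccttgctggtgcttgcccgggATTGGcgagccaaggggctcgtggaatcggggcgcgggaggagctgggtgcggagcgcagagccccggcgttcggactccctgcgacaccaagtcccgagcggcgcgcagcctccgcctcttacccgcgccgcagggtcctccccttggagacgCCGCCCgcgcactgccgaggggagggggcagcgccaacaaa
Col4a2: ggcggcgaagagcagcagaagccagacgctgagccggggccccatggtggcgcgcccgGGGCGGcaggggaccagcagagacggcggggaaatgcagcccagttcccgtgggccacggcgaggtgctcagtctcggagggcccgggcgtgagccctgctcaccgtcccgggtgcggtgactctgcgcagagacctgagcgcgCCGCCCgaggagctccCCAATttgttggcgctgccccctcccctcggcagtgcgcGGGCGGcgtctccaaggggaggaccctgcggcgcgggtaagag
The Col4a1 window held 1 GC box, 1 CCAAT box and 37 CpG dinucleotides, and the Col4a2 window 3, 1 and 33. The Col4a1 GC box lies in the 78 shared bases and is the last Col4a2 GC box read from the other strand. That site and the CpG of the shared bases are thus counted in both windows. Neither held TATAAA. Of all 32851 promoter windows in the table, 35.7% held a GC box and 37.4% a CCAAT box, and the median was 7 CpG.

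Col4a1 stood at 200.4 CPM in the WT library, 68.4 and 65.8 in the Pcgf3KO libraries, 70.6 and 72.5 in those of Pcgf5KO, and 93.9 and 119.6 in those of DKO. All 6 edited libraries were below WT, and both DKO libraries lay above all 4 single-knockout libraries. In edgeR's test Col4a1 fell 2.99-fold in Pcgf3KO (log2 −1.58 ± 0.13, adjusted p = 0.000877), 2.80-fold in Pcgf5KO (−1.49 ± 0.13, adjusted p = 0.00115) and 1.88-fold in DKO (−0.91 ± 0.13, adjusted p = 0.00717). Col4a2 followed the same order, at 114 CPM in WT, 33.8 and 30.8 in the Pcgf3KO libraries, 29.3 and 31.3 in those of Pcgf5KO, and 37.8 and 57.8 in those of DKO. It fell 3.54-fold in Pcgf3KO (−1.82 ± 0.20, adjusted p = 0.0022), 3.78-fold in Pcgf5KO (−1.92 ± 0.20, adjusted p = 0.00198) and 2.39-fold in DKO (−1.26 ± 0.19, adjusted p = 0.0104). These 6 calls held under every alternative fit that could be made, with adjusted p up to 0.0433. Per kilobase, the ratio of Col4a1 to Col4a2 was 1.55 in WT and 1.79 to 2.2 in the edited libraries. The 2 transcripts overlap on opposite strands and the library kit does not mark strand, so reads in the 22 shared bases could be counted to either gene.

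Col4a5, an alpha chain of a separate type IV network, was measured at a far lower level. It had 40 counts in WT, 4 and 4 in the Pcgf3KO libraries, 7 and 6 in those of Pcgf5KO, and 13 and 10 in those of DKO. In CPM this is 2.28 in WT against 0.202 to 0.685 in the 6 edited libraries, with no overlap. Col4a5 fell in Pcgf3KO (−3.38 ± 0.52, adjusted p = 0.0121) and in Pcgf5KO (−2.34 ± 0.49, adjusted p = 0.0381), and in DKO its value was −1.94 ± 0.45 (adjusted p = 0.0525). The Pcgf3KO call was lost without Pcgf3KO replicate 1 (adjusted p = 0.148) or 2 (0.13), and the Pcgf5KO call without any 1 of the 4 single-knockout libraries (0.104 to 0.308) and with limma (0.0593). Col4a3, Col4a4 and Col4a6 were among the members too low to test.

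**Figure D3:**
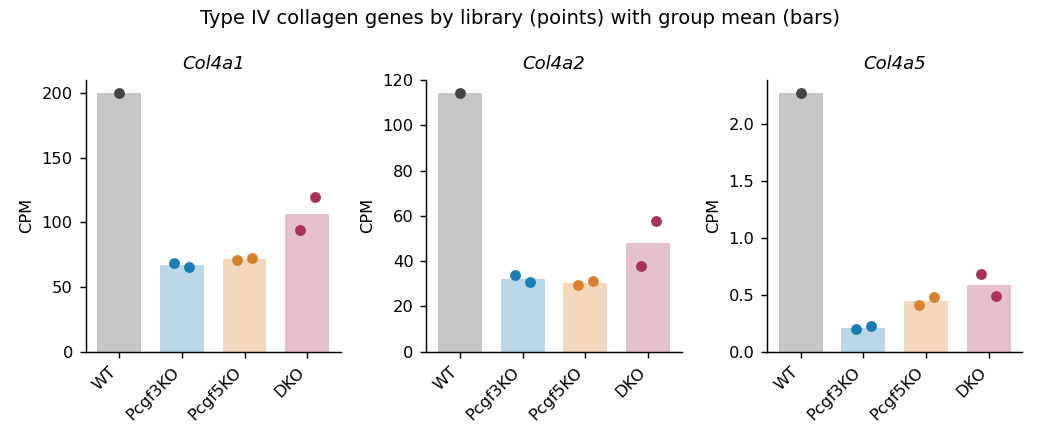
CPM of Col4a1, Col4a2 and Col4a5 (vertical axes from 0) by group, with 1 point per library and bars at the group mean. WT is a single library and lies highest in each panel, and for Col4a1 and Col4a2 the DKO libraries lie between WT and the single knockouts.

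Other basement membrane genes gave calls in both directions. Of 17 listed partners of type IV collagen (laminin chains, nidogens, perlecan, agrin and others), all tested, 1 was higher and 2 lower in Pcgf3KO, 1 higher and 2 lower in Pcgf5KO, and 1 was called in DKO, where it was higher, beside 2.36%, 2.99% and 3.22% of all tested genes called. Their median log2 fold changes were −0.26, −0.20 and −0.20. Lama3, the laminin alpha 3 chain, was the member that rose in each: 40.2 CPM in WT, 69.7 and 69.1 in the Pcgf3KO libraries, 71.7 and 71.2 in those of Pcgf5KO, and 88.6 and 84.7 in those of DKO (log2 0.79 ± 0.10, 0.83 ± 0.10 and 1.11 ± 0.10, adjusted p = 0.00557, 0.00429 and 0.000993). Hspg2, which encodes perlecan, fell in Pcgf5KO (−0.49 ± 0.08, adjusted p = 0.0158), as did Lama1, the laminin alpha 1 chain of the early embryo (−0.45 ± 0.09, adjusted p = 0.0393). Lama4, an endothelial and mesenchymal laminin chain, fell in Pcgf3KO (−1.25 ± 0.26, adjusted p = 0.0394).

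Primitive and parietal endoderm cells, which can arise in ES cell cultures, make type IV collagen and laminin in quantity, so their markers were read beside these genes. Of 16 markers 11 were tested, and 1 was lower in each comparison with WT. Of all tested genes, 1.28%, 1.68% and 1.89% were lower in Pcgf3KO, Pcgf5KO and DKO. The marker was Dab2, an endocytic adaptor, at 9.28 CPM in WT, 2.82 and 3.02 in the Pcgf3KO libraries, 4.38 and 4.93 in those of Pcgf5KO, and 4.16 and 4.45 in those of DKO (log2 −1.67, −1.0 and −1.11, adjusted p = 0.0054, 0.041 and 0.0256). The summed marker level was 31.1 CPM in WT, 17.6 and 16.3 in the Pcgf3KO libraries, 20.4 and 21.8 in those of Pcgf5KO, and 22.3 and 31.3 in those of DKO. Gata4, a defining endoderm transcription factor, ranged from 1.45 to 4.70 CPM and was not called, while Foxa2, Afp, Ttr, Hnf4a and Srgn were too low to test. In the fit with both WT libraries, on its own CPM scale, the endoderm factor Sox17 was lower in DKO. It stood at 4.0 and 4.18 CPM in WT and 0.596 and 0.280 in DKO (2 and 1 counts, log2 −3.13 ± 0.69, adjusted p = 0.0189). In the 7-library fit the value was −3.16 ± 0.86 (adjusted p = 0.0885). Sox17 was picked out after its value was seen. Gata4 went the other way in the fit with both WT libraries, at 10.9 and 15.1 CPM in WT and 15.8 and 26.5 in DKO. It was not called there (0.715 ± 0.32, adjusted p = 0.191). Among the 11 markers tested in the 7-library fit, the Pcgf3KO log2 fold change was below 0 for 10 and above 0 for 1. For Pcgf5KO the split was 8 below and 3 above, while DKO had 7 below and 4 above. Marker medians were −0.72, −0.82 and −0.16 for Pcgf3KO, Pcgf5KO and DKO, beside 0.00, 0.01 and 0.01 over all tested genes. The part of endoderm-like cells in the type IV values was not tested. In bulk RNA, fewer cells of a type and less RNA per cell cannot be told apart.

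Col18a1 (chromosome 10, 77052178 to 77166548, minus strand) encodes the basement membrane proteoglycan whose end fragment is endostatin. Although it belongs to the same matrix as type IV collagen, it was not called in any comparison with WT. Its level was 498 CPM in WT, 488 and 504 in the Pcgf3KO libraries, 570.5 and 605 in those of Pcgf5KO, and 391 and 422 in those of DKO. The DKO libraries were the lowest and the Pcgf5KO libraries the highest of the 7. Against WT the log2 differences were −0.01 (95% interval −0.20 to 0.19), 0.24 (0.04 to 0.44) and −0.29 (−0.49 to −0.10), with adjusted p of 0.986, 0.186 and 0.112. DKO was lower than Pcgf5KO by 1.45-fold (−0.53 ± 0.07, adjusted p = 0.0139), a call lost without any 1 of the 4 single-knockout libraries (adjusted p = 0.0619 to 0.315). Its fellow multiplexin Col15a1 was too low to test. Without Col18a1 the summed collagen level was 493 CPM in WT, 217 and 217 in the Pcgf3KO libraries, 231 and 243 in those of Pcgf5KO, and 279 and 344 in those of DKO.

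Among the 11 fibrillar collagen genes, all tested, none was higher. In Pcgf3KO 4 were lower, in Pcgf5KO 1 and in DKO 4, beside 1.28%, 1.68% and 1.89% of all tested genes lower. The median log2 fold changes of the 11 were −0.69, −0.34 and −0.05, against −1.82, −1.92 and −1.26 for the 3 tested type IV genes and 0.21, −0.17 and 0.15 for the 5 tested type VI genes. No test compared the classes. The fibrillar genes summed to 113 CPM in WT, 67.2 and 75.3 in the Pcgf3KO libraries, 86.2 and 89.6 in those of Pcgf5KO, and 81.7 and 95.3 in those of DKO.

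Type I collagen, the main fibril of bone, skin and tendon, is built from Col1a1 and Col1a2 chains. Col1a1 (chromosome 11, 94936224 to 94953042, plus strand) stood at 16.2 CPM in WT, 5.19 and 6.60 in the Pcgf3KO libraries, 7.34 and 7.93 in those of Pcgf5KO, and 5.32 and 6.92 in those of DKO. All edited libraries were below the WT library, and the 3 knockout groups lay close together. Col1a1 fell 2.76-fold in Pcgf3KO (−1.46 ± 0.21, adjusted p = 0.00984), 2.13-fold in Pcgf5KO (−1.09 ± 0.22, adjusted p = 0.0317) and 2.65-fold in DKO (−1.40 ± 0.21, adjusted p = 0.0098). Col1a2 (chromosome 6, 4504814 to 4541544, plus strand) stood at 6.15 CPM in WT, 2.52 and 2.52 in the Pcgf3KO libraries, 5.15 and 5.26 in those of Pcgf5KO, and 2.16 and 1.58 in those of DKO. It fell in Pcgf3KO (−1.29 ± 0.26, adjusted p = 0.037) and DKO (−1.72 ± 0.27, adjusted p = 0.0104), and its Pcgf5KO value was −0.24 ± 0.25 (adjusted p = 0.646). For both type I genes the Pcgf5KO libraries lay above the Pcgf3KO ones. The difference between the single knockouts did not pass for Col1a2 (1.04 ± 0.23, adjusted p = 0.193) or Col1a1 (0.37 ± 0.20, adjusted p = 0.628). Col1a2 was lower in DKO than in Pcgf5KO (−1.48 ± 0.23, adjusted p = 0.0227). The ratio of Col1a1 to Col1a2 per kilobase was 5.00 in WT, 3.90 and 4.96 in the Pcgf3KO libraries, 2.70 and 2.85 in those of Pcgf5KO, and 4.66 and 8.28 in those of DKO. The DKO calls of both genes against WT held under every alternative fit. The Pcgf3KO calls were lost without Pcgf3KO replicate 1 (adjusted p = 0.126 for Col1a1 and 0.256 for Col1a2) or 2 (0.0639 and 0.253), and that of Col1a2 also without Pcgf5KO replicate 1 or 2 (0.11 and 0.109), with DESeq2 (0.0826) and with limma (0.051). The Col1a1 call in Pcgf5KO and the Col1a2 difference between DKO and Pcgf5KO were lost without any 1 of the 4 single-knockout libraries (0.0789 to 0.313).

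The Col1a2 promoter window (chr6:4505368-4505667, plus strand, GRCm38.p6) is printed for type I collagen, since no window was found for Col1a1. GC and CCAAT boxes are in capitals.
Col1a2: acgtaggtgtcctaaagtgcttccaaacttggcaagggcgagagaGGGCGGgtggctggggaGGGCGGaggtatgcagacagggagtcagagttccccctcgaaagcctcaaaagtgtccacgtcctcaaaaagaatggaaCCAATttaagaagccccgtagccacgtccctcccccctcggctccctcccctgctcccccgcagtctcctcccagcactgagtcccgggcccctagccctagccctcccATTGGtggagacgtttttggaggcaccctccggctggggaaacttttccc
It held 2 GC boxes, 2 CCAAT boxes, no TATAAA and 13 CpG, fewer CpG than either type IV window. Over the 38 windows of the 35 collagen genes found in the table, 60.5% held a GC box, 34.2% a CCAAT box and 13.2% the TATA box, searched as TATAAA and, for the other strand, TTTATA, where all windows held 35.7%, 37.4% and 13.6%.

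Type V and XI chains start fibrils and set their width. Col5a2 stood at 11.3 CPM in WT, 2.02 and 3.64 in the Pcgf3KO libraries, 3.91 and 5.01 in those of Pcgf5KO, and 3.69 and 2.17 in those of DKO. It fell in Pcgf3KO (−2.00 ± 0.35, adjusted p = 0.0209) and DKO (−1.95 ± 0.35, adjusted p = 0.0211), with −1.35 ± 0.35 in Pcgf5KO (adjusted p = 0.0803). Col11a1 stood at 11.05 CPM in WT and at 4.06 to 5.83 in the 6 edited libraries, and fell in Pcgf3KO (−1.09 ± 0.24, adjusted p = 0.0474) and DKO (−1.16 ± 0.24, adjusted p = 0.0324), with −1.06 ± 0.24 in Pcgf5KO (adjusted p = 0.0511). The Pcgf3KO calls of both genes were lost without any 1 of the 4 single-knockout libraries (adjusted p = 0.0584 to 0.325), and that of Col11a1 also with DESeq2 (0.0617), limma (0.062) and the replicate block (0.0667). The DKO call of Col5a2 was lost without Pcgf5KO replicate 1 or 2 (0.0581 and 0.0588), and that of Col11a1 without any 1 of the 4 (0.0885 to 0.0937).

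Their partner chains Col5a1 and Col5a3, the most abundant fibrillar members, behaved otherwise and were also listed in both WT libraries. In the 8-library fit, whose CPM are scaled to the 8093 shared genes alone and so run higher, Col5a1 stood at 167 and 187 in WT, 112 and 124 in the Pcgf3KO libraries, 141 and 154 in those of Pcgf5KO, and 162 and 199 in those of DKO. The Pcgf3KO libraries were the lowest, and the DKO libraries straddled the WT pair. Col5a1 fell in Pcgf3KO in that fit (−0.58 ± 0.13, adjusted p = 0.0237), the only collagen gene of the 5 listed called against WT in any group, beside 5.51%, 8.62% and 8.11% of all genes called in Pcgf3KO, Pcgf5KO and DKO in that fit. With the replicate block, 1 of the 5 was called higher in Pcgf5KO and 1 in DKO. The Col5a1 call was lost without WT replicate 1 (0.0692) or 2 (0.157), without Pcgf3KO replicate 1 (0.223) or 2 (0.1), and without either Pcgf5KO library (0.0553). In the 7-library fit the same difference was −0.66 ± 0.15 (adjusted p = 0.0587). Col5a3 stood at 94.0 and 108 in WT and at 117 to 139 in the 6 edited libraries, all above both WT values, and was not called (0.33, 0.40 and 0.39, adjusted p = 0.168, 0.078 and 0.0759).

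The remaining fibrillar genes were not called against WT. Col2a1, the cartilage fibril chain, ranged from 4.13 to 8.15 CPM over the 7 libraries, with the WT library at 6.89 between the DKO libraries at 5.53 and 8.15. Col27a1, a cartilage-associated fibrillar chain, ranged from 5.59 to 9.54 CPM, lowest in both Pcgf3KO libraries. Col3a1, the partner of type I collagen in soft tissue, stood at 1.14 CPM in WT and at 0.243 to 0.738 in the edited libraries. Col11a2, Col3a1 and Col24a1 had means of 0.371 to 0.782 CPM, which leaves little precision.

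**Figure D4:**
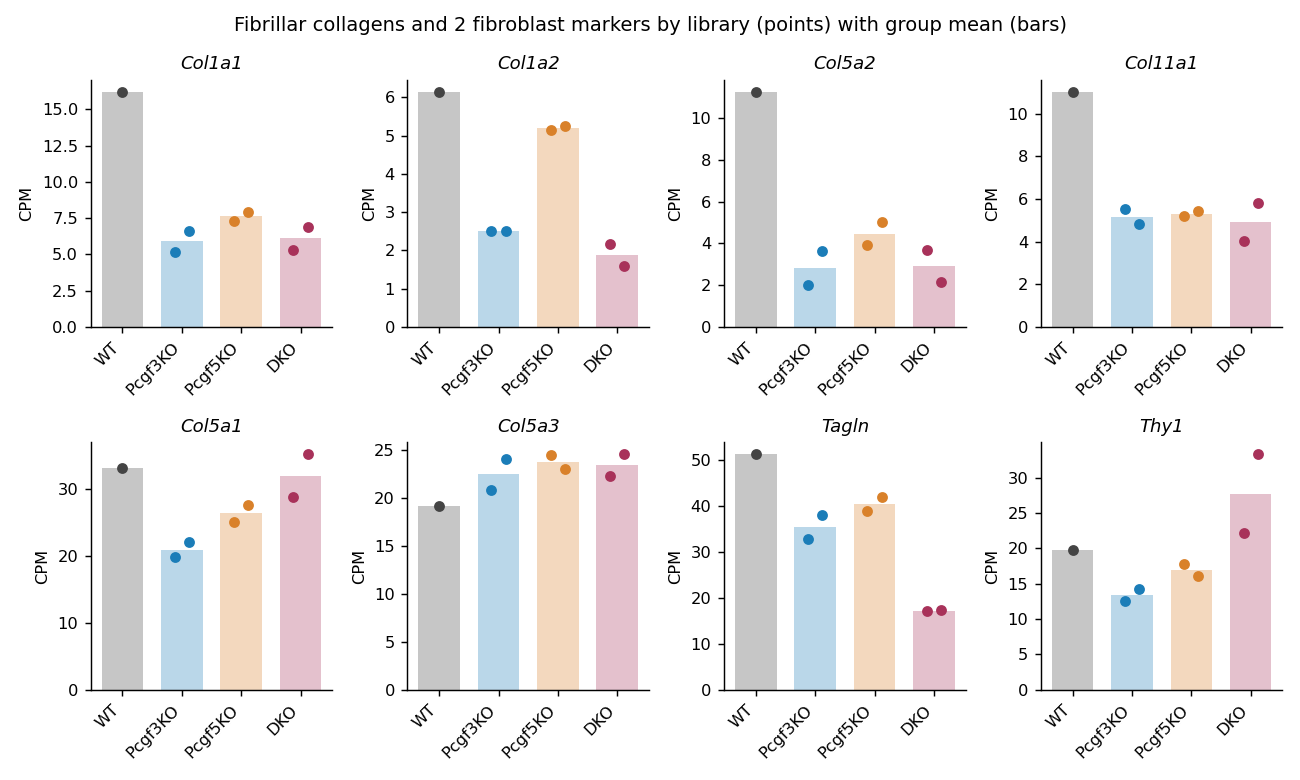
CPM of 6 fibrillar collagen genes and the fibroblast markers Tagln and Thy1 (vertical axes from 0) by group, with 1 point per library and bars at the group mean. Col1a1, Col5a2 and Col11a1 are highest in the WT library, Col1a2 is near the WT level in Pcgf5KO, Tagln is lowest in DKO and Thy1 highest in DKO.

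Feeder fibroblasts may supply part of the fibrillar RNA, and the counts do not say how much. Of 22 fibroblast markers 15 were tested, and of all tested genes 1.28%, 1.68% and 1.89% were lower in Pcgf3KO, Pcgf5KO and DKO. In Pcgf3KO 1 was lower, Acta2 (−1.06 ± 0.22, adjusted p = 0.0411), in Pcgf5KO none passed in edgeR's test, and in DKO 2 were lower, Acta2 (−3.67 ± 0.27, adjusted p = 0.000563) and Tagln (−1.58 ± 0.13, adjusted p = 0.000578). Both encode actin cytoskeleton proteins of contractile cells. Below 0 were 13, 12 and 11 of the 15 tested markers in Pcgf3KO, Pcgf5KO and DKO, and above 0 were 2, 3 and 4. Their median log2 fold changes were −0.56, −0.34 and −0.57, where the medians over all tested genes were 0.00, 0.01 and 0.01. The markers summed to 357 CPM in WT, 267 and 275 in the Pcgf3KO libraries, 313 and 321 in those of Pcgf5KO, and 304 and 302 in those of DKO, so the WT library was the highest here as for type I collagen. Most of that sum was Fstl1, a secreted glycoprotein, at 181 to 225 CPM and not called. Thy1, a surface protein, and Fbln2, a matrix protein, were higher in DKO than in Pcgf3KO (1.05 ± 0.18 and 1.27 ± 0.17, adjusted p = 0.0265 and 0.00889), the direction opposite to Acta2 and Tagln. Some members of the list, picked out after their values were seen, were near 0: Postn reached at most 0.336 CPM, Prrx1 0.237, Fap 0.198 and Twist2 0.118, while Dcn ranged from 0.454 to 1.71 and Lum from 0.148 to 0.890. Dcn was highest in WT and Lum in Pcgf5KO. Undifferentiated ES cell markers summed to 4409 CPM in WT, 5012 to 5248 in the single knockouts and 4486 to 4801 in DKO. Of these 16, all tested, 2, 3 and 3 were called higher and 0 lower in Pcgf3KO, Pcgf5KO and DKO. Beside them, 2.36%, 2.99% and 3.22% of all tested genes were called. Above 0 were 13, 12 and 10 of the ES cell markers, and below 0 were 3, 4 and 6. The part of feeder cells in the fibrillar differences was not tested.

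Of the fibril-associated collagens, 6 of 9 were tested and 1, Col12a1, fell in every knockout. Beside it, 1.28%, 1.68% and 1.89% of all tested genes were lower in Pcgf3KO, Pcgf5KO and DKO. Col12a1, which binds type I fibrils, stood at 3.13 CPM in WT (55 counts) and at 0.494 to 0.783 CPM in the 6 edited libraries (9 to 14 counts), with no overlap. The log2 values were −2.28 ± 0.42 in Pcgf3KO (adjusted p = 0.0244), −2.11 ± 0.43 in Pcgf5KO (0.0337) and −2.53 ± 0.43 in DKO (0.0156). The calls in the single knockouts were lost without any 1 of the 4 single-knockout libraries (adjusted p = 0.0778 to 0.275), and the DKO call without Pcgf5KO replicate 1 or 2 (0.0521 and 0.0527). Col9a2 and Col9a3, chains of the type IX collagen that coats cartilage fibrils, were not called against WT. Col9a2 ranged from 5.44 to 8.09 CPM, highest in WT. Col14a1, Col16a1 and Col22a1 had means of 0.536 to 1.96 CPM and were not called.

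Type VI collagen forms beaded filaments around cells, and its core chains come from Col6a1, Col6a2 and Col6a3. None of its 5 tested genes was called against WT. In the 8-library fit Col6a1 (chromosome 10, 76708792 to 76726168, minus strand) stood at 32.3 and 37.6 CPM in WT, 22.7 and 22.8 in the Pcgf3KO libraries, 21.6 and 24.0 in those of Pcgf5KO, and 40.2 and 43.3 in those of DKO. All 4 single-knockout libraries were below both WT libraries and both DKO libraries were above them. Col6a2 had the same order of groups at 11.3 CPM in WT, 6.75 and 6.10 in the Pcgf3KO libraries, 7.46 and 7.44 in those of Pcgf5KO, and 9.91 and 14.4 in those of DKO, with the WT library between the DKO ones. The Col6a1 to Col6a2 ratio per kilobase stayed between 0.981 and 1.36 in the 7 libraries. The Col6a1 promoter window (chr10:76725995-76726294, minus strand, GRCm38.p6) is printed as a contrast to the CpG-rich type IV windows.
Col6a1: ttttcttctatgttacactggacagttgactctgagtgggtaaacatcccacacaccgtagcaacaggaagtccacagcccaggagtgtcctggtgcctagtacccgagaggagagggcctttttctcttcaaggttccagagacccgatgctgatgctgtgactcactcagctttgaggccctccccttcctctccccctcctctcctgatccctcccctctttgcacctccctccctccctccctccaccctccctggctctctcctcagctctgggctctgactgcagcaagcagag
It held 3 CpG and none of the motifs searched, so no letter is in capitals. Col6a3, Col6a4 and Col6a5 had means of 0.42 to 1.37 CPM and were not called.

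In the remaining classes Col8a1 alone was called against WT. Col8a1, a short-chain collagen of vessel and corneal matrix, had 21 counts in WT, 6 and 2 in the Pcgf3KO libraries, 6 and 3 in those of Pcgf5KO, and 0 and 2 in those of DKO. It was the only member that passed the filter through the WT library alone, so it had to be high there. Its call in DKO (adjusted p = 0.0381) is therefore given as a description. That call was lost with limma (0.0541) and without any 1 of the 4 single-knockout libraries (0.0804 to 0.0994). Col7a1, which forms the fibrils that anchor skin epithelium, ranged from 6.27 to 11.6 CPM, highest in DKO replicate 1. Col26a1 ranged from 3.70 CPM in WT to 6.18 in DKO replicate 2, with every edited library above WT, and was not called (0.54, 0.25 and 0.67, adjusted p = 0.287, 0.596 and 0.154). Col8a2 and the 4 transmembrane collagens Col13a1, Col17a1, Col23a1 and Col25a1 had means of 0.464 to 3.54 CPM and were not called.

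The double knockout was then compared with each single knockout, which both have 2 libraries. Against Pcgf3KO, DKO had 4 of 34 collagen genes higher in edgeR's test (Col4a1, Col5a1, Col6a1 and Col9a3), beside 0.734% of all tested genes higher and 1.74% called. By edgeR, DESeq2 or limma 0 were lower. At an unadjusted p of 0.05 in edgeR's test, 13 were higher and 2 lower, where the share of all genes was not counted. Some edgeR alternatives called genes lower as well: 1 with the replicate block, 1 without the filter, 2 without DKO replicate 1 and 1 without DKO replicate 2. Against Pcgf5KO, 3 were higher (Col4a1, Col6a1 and Col9a3) and 2 lower (Col1a2 and Col18a1), beside 0.996% of all genes higher, 1.28% lower and 2.28% called. Both DKO libraries lay above all 4 single-knockout libraries for 12 of the 34 (35.3%) and for 15.0% of all tested genes. The 2 comparisons share the DKO libraries. Neither Pcgf3KO nor Pcgf5KO, set against each other, had a collagen gene called by edgeR, DESeq2 or limma, beside 0.140% of all genes in edgeR's test. At an unadjusted p of 0.05, 5 of 34 differed, all higher in Pcgf5KO, where 8.50% of all genes passed in either direction. The 5 include Col24a1, which reached the filter level in the Pcgf5KO libraries alone and so had to be high there.

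Col9a3 (chromosome 2, 180597790 to 180622189, plus strand) showed the largest of the higher calls. It stood at 4.73 CPM in WT, 2.57 and 2.13 in the Pcgf3KO libraries, 2.72 and 2.99 in those of Pcgf5KO, and 5.53 and 7.36 in those of DKO. The DKO libraries were the highest of the 7, and DKO was 2.74-fold above Pcgf3KO (1.45 ± 0.23, adjusted p = 0.0184) and 2.27-fold above Pcgf5KO (1.18 ± 0.23, adjusted p = 0.0402). Col9a3 overlaps Tcfl5 on the opposite strand by up to 234 bases of exon, so reads there cannot be assigned. Tcfl5 itself stood at 25.3 to 33.0 CPM and was not called (−0.05 and −0.24, adjusted p = 0.845 and 0.222). Col6a1 was 1.83-fold above Pcgf3KO (0.87 ± 0.17, adjusted p = 0.041) and 1.82-fold above Pcgf5KO (0.87 ± 0.18, adjusted p = 0.0446). In the 8-library fit its values were 0.88 and 0.88 (adjusted p = 0.0656 and 0.0465), beside 0.518% and 2.37% of all genes called. DESeq2 lost both 7-library calls of Col6a1 (0.0819 and 0.0535), and its 8-library call was lost without WT replicate 1 or 2 (0.0777 each) or any 1 of the 4 single-knockout libraries (0.0702 to 0.336). Col4a1 was 1.59-fold above Pcgf3KO (0.67 ± 0.11, adjusted p = 0.021) and 1.49-fold above Pcgf5KO (0.58 ± 0.11, adjusted p = 0.0381). For Col4a2 the values were 0.57 ± 0.17 (adjusted p = 0.138) and 0.66 ± 0.17 (adjusted p = 0.073). Each of the 9 calls was lost when Pcgf3KO replicate 1 or 2 or Pcgf5KO replicate 1 or 2 was left out (adjusted p = 0.0619 to 0.421), and no collagen gene was then called in either comparison. More were called in both comparisons when DKO replicate 1 or 2 was left out, where the share of all genes called was not counted.

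**Figure D5:**
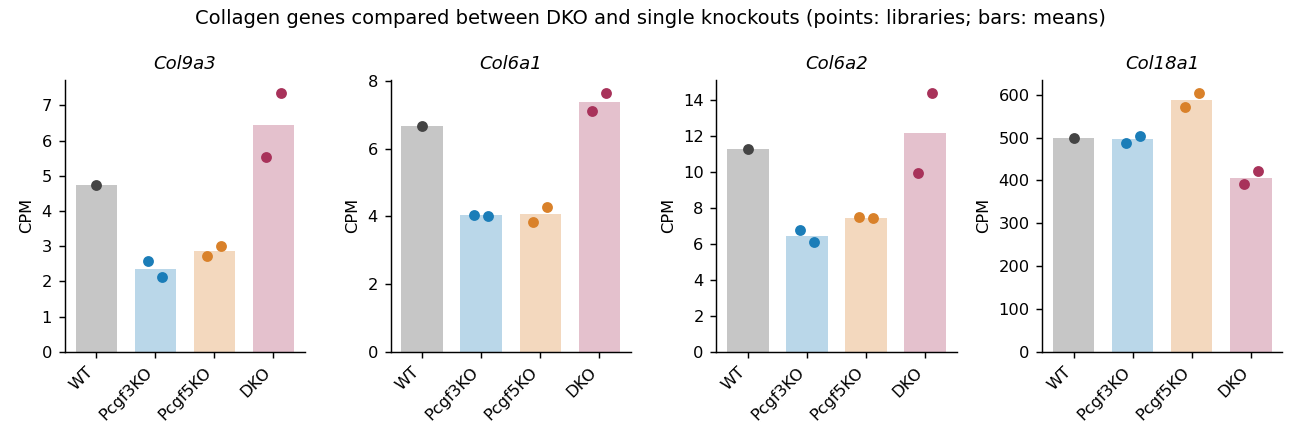
CPM of Col9a3, Col6a1, Col6a2 and Col18a1 (vertical axes from 0) by group, with 1 point per library and bars at the group mean. For the first 3 genes both DKO libraries lie above all 4 single-knockout libraries, and for Col18a1 they lie below them.

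A contrast added after the data had been seen measured how far DKO departed from the sum of the single-knockout changes on the log2 scale (DKO minus Pcgf3KO minus Pcgf5KO plus WT). Of the 34 collagen genes 7 lay above that sum (Col4a1, Col4a2, Col4a5, Col5a1, Col6a1, Col6a2 and Col9a3) and 1 below it (Col18a1), beside 1.77% and 2.02% of all tested genes and 3.79% in either direction. For Col4a1 the departure was 2.16 ± 0.17 (adjusted p = 0.00108) and for Col4a2 2.48 ± 0.26 (adjusted p = 0.00292). The WT library enters this contrast with a plus sign, and it stood above all 6 edited libraries for both genes. A gene that fell equally in every knockout group would therefore also lie above the sum. For these 2 genes the single knockouts had, in addition, each fallen by more than DKO. Both departures held under every alternative fit. The other 6 were lost without any 1 of the 4 single-knockout libraries (adjusted p = 0.0701 to 0.23), which left 2 called each time. More were called without DKO replicate 1 or 2, where the share of all genes called was not counted. With both WT libraries, Col5a1 and Col6a1 passed again (0.88 ± 0.18 and 1.497 ± 0.26, adjusted p = 0.0193 and 0.00859), beside 6.92% of all genes in that fit. Of these, Col5a1 was lost without WT replicate 2 (0.0851) or any 1 of the 4 single-knockout libraries (0.0547 to 0.133), and Col6a1 without Pcgf5KO replicate 1 (0.0682).

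Collagen chains are modified and folded by enzymes of the endoplasmic reticulum. Of 24 listed, 22 were tested, with 3 lower in each single knockout and 2 lower in DKO, beside 1.28%, 1.68% and 1.89% of all tested genes lower in Pcgf3KO, Pcgf5KO and DKO, and the list medians were 0.01, −0.09 and −0.15. Serpinh1, the collagen chaperone HSP47, stood at 134 CPM in WT and at 84.6 to 101 in the 6 edited libraries and fell in each group (−0.58 ± 0.11, −0.47 ± 0.11 and −0.58 ± 0.11, adjusted p = 0.0235, 0.0472 and 0.0211). Fkbp10, a prolyl isomerase that acts on procollagen, stood at 49.8 CPM in WT and at 27.0 to 35.7 in the edited libraries and fell in each group (−0.56 ± 0.11, −0.53 ± 0.11 and −0.86 ± 0.11, adjusted p = 0.037, 0.0409 and 0.00443). Plod2, the lysyl hydroxylase that prepares collagen ends for cross-linking, fell in Pcgf3KO and Pcgf5KO (−0.59 ± 0.12 and −0.67 ± 0.13, adjusted p = 0.0435 and 0.0279). It was listed in both WT libraries, at 339.7 and 362 CPM on the scale of the 8-library fit against 219 to 293 in the edited libraries, and was called in the same groups there (adjusted p = 0.0103 and 0.00426).

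Among the 15 genes for procollagen cleavage and cross-linking, 14 were tested in the 7-library fit. There 2 were lower in Pcgf3KO, 1 in Pcgf5KO, and 1 was higher and 2 lower in DKO, beside 2.36%, 2.99% and 3.22% of all tested genes called. The values of Bmp1, Loxl4 and Adamts14 below are from the 8-library fit, whose calls can differ from these counts. In that fit 5.51%, 8.62% and 8.11% of all tested genes were called in the same groups. Bmp1, the protease that trims the end of fibrillar procollagens, was listed in both WT libraries, at 166 and 192 CPM in the 8-library fit. It stood at 52.2 and 52.1 in the Pcgf3KO libraries, 41.8 and 44.3 in those of Pcgf5KO, and 64.4 and 113 in those of DKO, with WT highest and DKO next, as for Col4a1. The log2 values there were −1.77 ± 0.21, −2.05 ± 0.22 and −1.01 ± 0.20 (adjusted p = 0.000722, 0.000321 and 0.0124). Loxl4, a lysyl oxidase that cross-links collagen, differed between the WT libraries (123 and 77.7 CPM) and stood at 25.0 and 35.5 in DKO, where it fell (−1.73 ± 0.23, adjusted p = 0.00106). It also fell in Pcgf5KO (−0.93 ± 0.22, adjusted p = 0.0258) and was lower in DKO than in Pcgf3KO (−1.34 ± 0.23, adjusted p = 0.0394). Adamts14, another procollagen protease, rose in DKO, from 55.4 and 69.7 CPM in WT to 120.1 and 113 (0.90 ± 0.14, adjusted p = 0.00273), and in Pcgf5KO, to 87.3 and 94.1 (0.54 ± 0.14, adjusted p = 0.0395). Pcolce2, an enhancer of Bmp1, fell in Pcgf3KO in the 7-library fit (−0.83 ± 0.17, adjusted p = 0.0438).

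Of 18 genes for collagen receptors and turnover, 13 were tested, with none higher and 3 lower in Pcgf3KO, 1 lower in Pcgf5KO and 2 lower in DKO. Of all tested genes, 1.28%, 1.68% and 1.89% were lower in the same groups. Itgb1, the beta 1 chain shared by the collagen-binding integrins, fell in each group, from 424 CPM in WT to 288 and 279 in the Pcgf3KO libraries, 259.5 and 252 in those of Pcgf5KO, and 281 and 283 in those of DKO (−0.58 ± 0.08, −0.73 ± 0.08 and −0.59 ± 0.08, adjusted p = 0.008, 0.0026 and 0.00566). Mmp14, a membrane-anchored collagenase, fell in Pcgf3KO (−0.75 ± 0.15, adjusted p = 0.0347) and DKO (−0.96 ± 0.15, adjusted p = 0.0103). Mmp2, the gelatinase it activates, fell in Pcgf3KO (−0.77 ± 0.13, adjusted p = 0.0183) and was higher in DKO than in Pcgf3KO (0.57 ± 0.11, adjusted p = 0.04).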

How the data were processed

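RNA-seq libraries of 4 genotypes were used, as 8 deposited tables of whole-number counts per gene made by the authors. The submitters' processing notes name TopHat2 2.0.12, Cufflinks 2.2.1, HTSeq 0.6.0 and mm10, without the role of each. Per the labels' protocols the NEBNext Ultra kit was used, which does not mark strand. Ensembl ids were matched to GENCODE M21 symbols (46488 of 47069), which also gave exon lengths. Totals per library limit the precision of low genes.

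Counts were tested with edgeR 4.0.16 (R 4.3.3): TMM, filterByExpr, glmQLFit and glmQLFTest over all genes, Benjamini-Hochberg adjustment, no block. The WT replicate 1 table used here covers part of the gene list, so the main test used 7 libraries (3 residual degrees of freedom, minimum 0.553 CPM in 1 library), and a second test used the genes shared by all 8 (2702 tested). Standard errors are the log2 fold change divided by the root of F. Alternatives were DESeq2 1.42.0, its size factors, limma 3.58.1 on log2 CPM with a prior count of 2, no filter, a replicate block and leaving out each library. The fitting was tested on simulated data.

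The collagen rule and all gene lists were chosen with earlier results of these data known. Values are given for collagen genes with a mean of at least 5 CPM or a call. From every other list up to 4 called genes with the smallest p are named, except the ES cell markers, given only as a sum and counts. The 4 most abundant fibroblast markers are named too. Of the 4 most abundant endoderm markers Dab2 and Gata4 are named, and Cited1 and Amn are left out. Col3a1, Dcn, Lum, Postn, Prrx1, Fap, Twist2, Sox17 and Tcfl5 were named after their values were seen. Promoters come from RefSeq (GRCm38.p6), found for 35 collagen genes. 1 listed gene is not reported here and was left out of its list.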

Additional observations from a re-analysis of the deposited data

Results flagged for a closer look

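For 8 collagen genes the effect of losing Pcgf5 differed between cells that had Pcgf3 and cells that did not, by edgeR's test of the contrast DKO minus Pcgf3KO minus Pcgf5KO plus WT, which was added after the data had been seen. The difference was 2.16 for Col4a1, 2.48 for Col4a2, 2.18 for Col9a3, 1.59 for Col6a1, 3.78 for Col4a5, 1.52 for Col6a2 and 0.95 for Col5a1, and −0.53 for Col18a1, all on the log2 scale. The adjusted p-values were 0.00108, 0.00292, 0.0142, 0.0163, 0.0262, 0.0289, 0.0334 and 0.0377, in the same order. For Col6a1 and Col9a3 the single knockouts lay below the WT library and DKO above it, and for Col18a1 the Pcgf5KO libraries lay above the WT library and the DKO ones below it. Of all tested genes 3.79% were called in this contrast. WT is 1 library in this fit, and 6 of the 8 calls, all but Col4a1 and Col4a2, were lost without any 1 of the 4 single-knockout libraries. With both WT libraries the value was 0.88 for Col5a1 and 1.497 for Col6a1 (adjusted p = 0.0193 and 0.00859).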

How the results depend on the processing

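Of 42 collagen calls, 10 held under every alternative that could be fitted: Col4a1 and Col4a2 against WT in all 3 groups and in the added contrast, and Col1a1 and Col1a2 in DKO. Over the named genes, 1844 alternative values gave 131 lost calls and 128 gained calls. There were 0 reversals of sign, counted only where the gene was called in the main fit or the alternative. Of the 1246 values uncalled in both, 41 took the other sign. In the 7-library fit, DESeq2 called 5 genes in Pcgf3KO and 3 in Pcgf5KO against WT, and 3 between DKO and Pcgf5KO. Without the filter, 11 were called between DKO and Pcgf3KO, 9 between DKO and Pcgf5KO, 1 between the single knockouts and 14 in the added contrast. In the 8-library fit, DESeq2 and the fit without the filter each called 2 between DKO and Pcgf3KO, and DESeq2 called 0 between DKO and Pcgf5KO.

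The labels do not say that replicate numbers mark a shared batch, and the replicate differences correlated at 0.135 between DKO and Pcgf3KO, 0.01 between DKO and Pcgf5KO and −0.014 between the single knockouts. With the replicate block, 8 genes were called between DKO and Pcgf5KO in the 7-library fit, and in the 8-library fit 1 was called in Pcgf5KO, 1 in DKO and 2 between DKO and Pcgf3KO.

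Leaving out 1 library gave 2 to 16 calls in Pcgf3KO, 2 to 18 in Pcgf5KO and 4 to 12 in DKO against WT. It gave 0 to 13 between DKO and Pcgf3KO, 0 to 13 between DKO and Pcgf5KO, 0 to 5 between the single knockouts and 2 to 16 in the added contrast. In the 8-library fit the ranges were 0 to 2, 0 to 2, 0 to 1, 0 to 2, 0 to 1, 0 to 0 and 0 to 2 in the same order. A group left with 1 library is assumed to vary like the others, and without the only complete WT library no comparison with WT could be fitted in the 7-library fit. Alternatives were read for the collagen genes and not for the other lists, and the share of all genes called under them was not counted. Genes near the filter, such as Col4a5 and Col8a1, rest on few counts.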
